A study of Mus musculus with 25 samples.

Results

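The Fc gamma receptors and their shared signalling chain were followed as 5 genes among the 22439 in the deposited count matrices. Fcgr1, Fcgr3 and Fcgr4 encode the activating receptors for immunoglobulin G (IgG), Fcgr2b encodes the inhibitory receptor, and Fcer1g encodes the gamma chain through which the activating receptors signal. The genes were taken by name as a family, not for their values. All 5 passed the filter on low counts in every comparison.

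Fc gamma receptors bind the constant region of IgG on antibody-coated particles and immune complexes. The activating receptors hold little signalling sequence of their own: they pair with the gamma chain, whose immunoreceptor tyrosine-based activation motif (ITAM) is phosphorylated by Src-family kinases and recruits the kinase Syk, which leads to phagocytosis, oxidant release and cytokine production. Fcgr2b carries an inhibitory motif instead and recruits the phosphatase SHIP1, encoded by Inpp5d, so the balance between the receptor classes sets the threshold of the response. Microglia, the resident macrophages of the central nervous system, carry the whole family, as do blood-derived macrophages.

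The study followed myeloid cells of the mouse spinal cord by droplet single-cell RNA sequencing from the 3′ end after spinal cord injury, in 25 libraries with 30958 cells. Controls had a laminectomy without injury (Ctrl), and injured tissue was taken at days 1, 2, 3, 10 and 21 (D1, D2, D3, D10 and D21). All mice carried Cx3cr1CreERT2, a Cre recombinase driven by the Cx3cr1 gene of microglia and many monocyte-derived cells. Each library pooled tissue from 1 mouse or a few mice, and the labels give neither an age nor a tamoxifen schedule.

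From Cx3cr1CreERT2 mice, YFP+ cells were sorted without a split by origin, which gave 12 libraries called mixed here (D1 and D3 with 3 each, D2 and D10 with 2 each, Ctrl and D21 with 1 each). From Cx3cr1CreERT2:R26tdTomato mice, RFP+/YFP+ cells gave 5 libraries titled resident (1 each at Ctrl, D2 and D10, and 2 at D3), and RFP-/YFP+ cells gave 7 titled infiltrating (D1 and D10 with 2 each, D2, D3 and D21 with 1 each). The title and the sort label of 1 more D3 library disagree, so it entered no comparison. Another library, the infiltrating one at D2, is labelled female while the deposited sample code reads male, and it was kept under its label.

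The deposited annotation assigned 13289 cells to microglia, 12841 to macrophages (monocytes included), 2712 to dendritic-like cells and 2116 to neutrophil-like cells. Many but not all listed markers followed these names. Over all cells of a type, the microglial gene P2ry12 stood at 664 CPM (the gene's UMIs, or counted molecules, per 1000000 UMIs) in microglia and 8.53 in macrophages, and the macrophage gene Ms4a7 at 36.3 and 492. The dendritic cell gene Flt3 stood at 67.0 in dendritic-like cells, and the neutrophil gene S100a8 at 46832 in neutrophil-like cells. In the macrophage list of 9 genes Msr1 (245 and 238 CPM in microglia and macrophages) and Cd5l (18.2 and 3.68) went the other way. The monocyte genes Ccr2 and Plac8 stood at 693 and 1046 CPM in dendritic-like cells against 295 and 666 in macrophages. Libraries held 155 to 3800 cells and 486649 to 33204422 unique molecular identifiers (UMIs, 1 per captured molecule), and the median cell held 1577 to 11233 UMIs depending on the library. No barcode was shared between libraries. All 1887 control cells, and no others, form deposited cluster 1, so control and cluster 1 cannot be told apart.

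Levels below are CPM, computed on the sum of all cells of 1 type in 1 library (at least 20 cells). Comparisons over time took microglia from the resident and mixed libraries (17 sums) and macrophages from the infiltrating and mixed ones (15 sums). They left out the macrophages of D2_resident 1, D3_resident 1 and 2 and D10_resident 1 and the microglia of D10_infiltrating 2 and D21_infiltrating 1, which entered the comparisons within libraries. Each molecule is counted once at its 3′ end, so no scaling by transcript length applies, but genes may be captured unequally. The tests are edgeR's quasi-likelihood test on the same sums, adjusted over all genes by the Benjamini-Hochberg method, with trimmed-mean (TMM) scaling, which sets most genes level between libraries. A gene is said to rise, fall or change where its adjusted p is under 0.05. Fold changes are log2 values with their standard error (SE), and the library is the replicate, so p-values measure the spread between libraries.

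Across all cells Fcer1g was among the most abundant transcripts of the series, with 778927 UMIs (3734 CPM, rank 19 among genes). The receptors followed at 450 CPM for Fcgr3, 428 CPM for Fcgr1, 254 CPM for Fcgr2b and 76.8 CPM for Fcgr4.

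In the reference genome 4 of the 5 genes lie close together on chromosome 1 (GENCODE M21, GRCm38): Fcgr2b at chr1:170958617-170976547 on the minus strand, Fcgr4 at chr1:171018920-171029761 on the plus strand, Fcgr3 at chr1:171051174-171064935 on the minus strand and Fcer1g at chr1:171229572-171234365 on the minus strand. Fcgr1 lies apart at chr3:96282909-96293969 on the minus strand. Fcgr2b and Fcgr3 encode closely related extracellular domains, and an antisense gene, Gm38204, overlaps the 5′ part of Fcgr2b. How the counting treated reads shared between such genes is not given in the sources used here, so the split between Fcgr2b and Fcgr3 carries that uncertainty.

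Promoter windows are shown for the 4 receptors because their levels moved differently over time and between cell types. Each window runs from 250 bases before to 50 bases after the transcription start annotated by RefSeq (GRCm38.p6), 5′ to 3′ on the gene's strand, at chr3:96293920-96294219 (minus) for Fcgr1, chr1:171059354-171059653 (minus) for Fcgr3, chr1:171018676-171018975 (plus) for Fcgr4 and chr1:170976022-170976321 (minus) for Fcgr2b. RefSeq lists another start for Fcgr3 close by, whose window is not printed. Capitals mark matches on either strand to 3 motifs: GAGGAA (or its reverse complement TTCCTC), the core bound by the myeloid factor PU.1; TTCNNNGAA, the interferon gamma-activated site; and GAAANNGAAA, the interferon-stimulated response element.
Fcgr1: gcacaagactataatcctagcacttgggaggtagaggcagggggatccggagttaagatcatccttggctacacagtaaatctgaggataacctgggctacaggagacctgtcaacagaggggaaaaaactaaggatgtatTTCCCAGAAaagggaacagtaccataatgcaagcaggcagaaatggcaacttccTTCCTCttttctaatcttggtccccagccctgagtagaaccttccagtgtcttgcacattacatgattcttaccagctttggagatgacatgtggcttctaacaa
Fcgr3: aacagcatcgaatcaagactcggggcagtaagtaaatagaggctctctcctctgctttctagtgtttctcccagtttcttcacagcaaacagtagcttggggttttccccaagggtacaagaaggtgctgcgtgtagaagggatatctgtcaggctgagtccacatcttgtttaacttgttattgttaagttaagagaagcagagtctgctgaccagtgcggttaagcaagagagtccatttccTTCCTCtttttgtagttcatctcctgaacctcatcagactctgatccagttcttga
Fcgr4: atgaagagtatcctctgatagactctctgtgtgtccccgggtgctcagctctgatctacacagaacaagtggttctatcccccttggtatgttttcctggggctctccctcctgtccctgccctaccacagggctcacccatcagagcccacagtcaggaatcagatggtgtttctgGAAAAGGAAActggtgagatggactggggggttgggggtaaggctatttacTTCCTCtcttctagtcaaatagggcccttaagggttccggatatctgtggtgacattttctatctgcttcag
Fcgr2b: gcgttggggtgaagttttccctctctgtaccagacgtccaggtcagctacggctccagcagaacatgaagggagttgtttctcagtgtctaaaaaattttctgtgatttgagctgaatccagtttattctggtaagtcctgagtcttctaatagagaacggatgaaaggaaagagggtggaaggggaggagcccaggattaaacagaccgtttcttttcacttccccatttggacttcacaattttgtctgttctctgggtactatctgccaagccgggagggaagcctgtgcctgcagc

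All 3 activating receptors held the GAGGAA core shortly before the start, from -55 to -50 in Fcgr1, from -6 to -1 in Fcgr3 and from -22 to -17 in Fcgr4. Fcgr1 also held a TTCNNNGAA match (-109 to -101), and Fcgr4 a GAAANNGAAA match (-73 to -64). The windows of Fcgr2b and Fcer1g held none of the 3. Among 32851 promoter windows of the same length, 28.3% held the GAGGAA core, 8.3% TTCNNNGAA and 3.44% GAAANNGAAA. A match describes letters and shows no binding.

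The 4 cell types carried the family in different proportions. In microglia Fcgr3 was the most abundant receptor, at 754 ± 190 CPM (mean ± SD, n = 17 libraries), followed by Fcgr1 at 357 ± 137, Fcgr2b at 176 ± 58.4 and Fcgr4 at 66.3 ± 29.7. In macrophages the receptors were closer together, with Fcgr3 at 396 ± 209 CPM, Fcgr1 at 353 ± 222, Fcgr2b at 295 ± 217 and Fcgr4 at 70.8 ± 38.9 (n = 15). Fcgr3, Fcgr1 and Fcgr2b do not differ beyond their spread in that order.

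In dendritic-like cells the inhibitory Fcgr2b led, at 220 ± 124 CPM, with Fcgr1 at 156 ± 60.4, Fcgr3 at 137 ± 96.9 and Fcgr4 at 23.7 ± 9.77 (n = 9). Fcgr2b, Fcgr1 and Fcgr3 lie within their spread there. Neutrophil-like cells held Fcgr3 at 727 ± 181 CPM, Fcgr2b at 131 ± 66.1, Fcgr4 at 121 ± 49.5 and Fcgr1 at 35.5 ± 9.64 (n = 4). Fcer1g exceeded every receptor in every type, at 3609 ± 655 CPM in microglia, 3599 ± 771 in macrophages, 2659 ± 829 in dendritic-like cells and 5143 ± 1381 in neutrophil-like cells.

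As shares of the UMIs of the 4 receptors, Fcgr3 made up 55.8% on average in microglia, 37.5% in macrophages, 23.5% in dendritic-like cells and 71.8% in neutrophil-like cells. Fcgr2b made up 13%, 25%, 40.9% and 12.8% in the same order. Fcgr1 took 26.1%, 30.9%, 30.9% and 3.68%, and Fcgr4 5.06%, 6.58%, 4.70% and 11.7%. These shares are free of the scaling of the library, since both numbers come from the same sum.

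**Figure D1:**
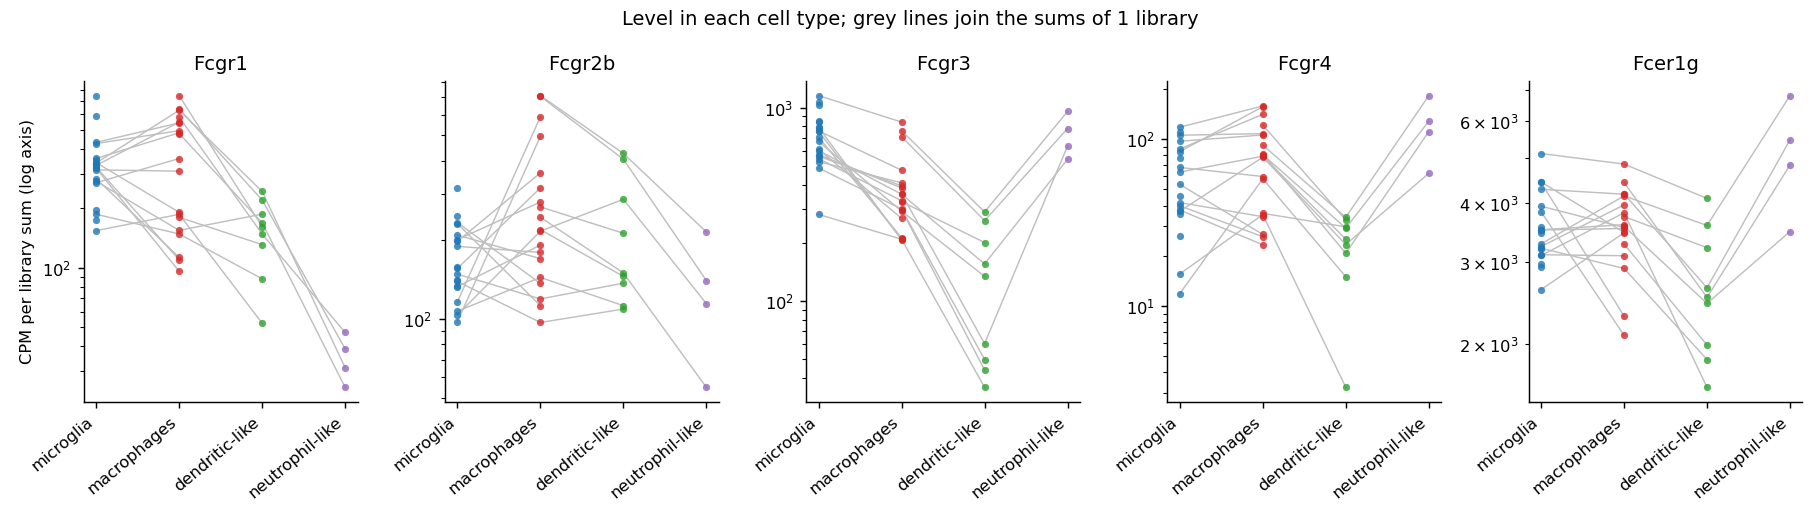
Level of each gene in CPM (log axis) in the 4 cell types, 1 point per library, with grey lines that join the sums of 1 library. Fcgr3 sits higher in microglia (mean 754 CPM) than in macrophages (396 CPM), and Fcgr1 is lowest in neutrophil-like cells (35.5 CPM).

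Within libraries, 1 receptor separated macrophages from microglia. Fcgr3, a low-affinity activating receptor for immune complexes, ranged from 207 to 842 CPM (median 315) in the macrophages of 14 libraries and from 281 to 1153 CPM (median 604) in their microglia. It was lower in macrophages in 14 of 14 libraries, although the ranges over libraries overlap. The log2 change was -0.97 (SE 0.15, edgeR adjusted p = 3.86e-05), and it was the 1 member called, against 28.6% of all genes.

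The other 4 genes did not pass the test between these types over all days. Fcgr1, the high-affinity receptor, was higher in macrophages in 7 libraries and lower in 7 (log2 change -0.28, 95% interval -0.72 to 0.16). Fcgr2b was higher in 8 and lower in 6 (0.38, interval -0.11 to 0.88), Fcgr4 higher in 9 and lower in 5 (0.12, interval -0.26 to 0.49), and Fcer1g higher in 6 and lower in 8 (-0.13, interval -0.43 to 0.18). The intervals of Fcgr1 and Fcgr2b leave room for a difference of over 1.5-fold. The order of the types differed by day, in a split made after the values were seen and not tested. Fcgr2b was higher in macrophages in 7 of 8 libraries of D1 to D3 and lower in 5 of 6 of D10 and D21, and Fcgr1 was higher in 6 of 8 and lower in 5 of 6. In D1_mixed 1 Fcgr2b stood at 496 CPM in macrophages and 97.6 in microglia, and in D10_mixed 1 at 112 and 231 CPM.

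In dendritic-like cells, which present antigen, all 5 members were called lower than in macrophages of the same 9 libraries, where 21.0% of all genes were lower. The call of Fcgr2b was weak: it was lower in 6 libraries and higher in 3. Fcgr3 ran from 35.8 to 289 CPM (median 134) against 209 to 759 (median 327) in macrophages, lower in 9 of 9 libraries (log2 change -1.85, SE 0.21, edgeR adjusted p = 6.63e-06). Fcgr4 ran from 3.26 to 34.0 CPM against 35.3 to 121, also lower in 9 of 9 with no overlap between the types (-1.72, SE 0.16, adjusted p = 1.30e-06). Fcgr1 was lower in 8 of 9 libraries, the exception being D3_mixed 3 (-1.38, SE 0.22, adjusted p = 0.000135). The macrophage marker list summed to 1141 to 16921 CPM in these dendritic-like sums, with 10411 in D3_mixed 3. Its part in the differences was not tested.

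The signalling chain Fcer1g was lower in dendritic-like cells in 9 of 9 libraries, at 1613 to 4095 CPM against 2900 to 4852 (log2 change -0.66, SE 0.11, edgeR adjusted p = 0.000196). Fcgr2b showed the smallest difference, lower in 6 of 9 libraries (-0.41, SE 0.14, adjusted p = 0.0335), and its call was lost on scaling by total UMIs (-0.33, adjusted p = 0.0731). In the mixed libraries alone its value turned to 0.11 (adjusted p = 0.817). Leaving out 1 library gave -0.50 to -0.33, and the call was lost without D1_infiltrating 1, D1_infiltrating 2, D2_infiltrating 1 or D3_infiltrating 1, with adjusted p up to 0.117.

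Neutrophil-like cells shared 4 libraries with macrophages, and 2 of the 5 genes were lower there, against 27.4% of all genes lower. Fcgr1 stood at 38.9 CPM in D1_infiltrating 1, 47.1 in D1_infiltrating 2, 24.8 in D2_infiltrating 1 and 31.2 in D2_mixed 2, while macrophages of these libraries held 479 to 640. The groups do not overlap, and the log2 change was -4.07 (SE 0.33, edgeR adjusted p = 5.17e-08). Fcgr2b stood at 54.9, 214, 140 and 114 CPM in the same order against 244, 709, 704 and 216 in macrophages, lower in each library with touching ranges (-1.92, SE 0.30, adjusted p = 5.75e-05). Free RNA in the droplets was not removed, so the few Fcgr1 molecules in neutrophil-like cells are not shown to be their own.

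The low-affinity activating receptors and the chain did not fall in neutrophil-like cells. Fcgr3 ran from 541 to 955 CPM and was higher than in macrophages in 4 of 4 libraries (log2 change 0.36, interval -0.22 to 0.93), Fcgr4 from 62.4 to 182 CPM and higher in 3 of 4 (0.45, interval -0.19 to 1.09), and Fcer1g from 3478 to 6799 CPM and higher in 3 of 4 (0.18, interval -0.50 to 0.85). None of these 3 changes passed the test. The median gene of this comparison lay at -0.16.

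In macrophages 3 of the 4 receptors fell between D1 and D10, while the chain did not pass the test. Of all genes 14.4% were called in this comparison and 7.04% were lower. The 4 libraries at D1 are D1_infiltrating 1, D1_infiltrating 2, D1_mixed 1 and D1_mixed 3, and the 4 at D10 are D10_infiltrating 1, D10_infiltrating 2, D10_mixed 1 and D10_mixed 2, in the order used below. The deposited cell table gives each library a pool code whose meaning it does not state. No pool held macrophages of both days, so the pool and the day of macrophages cannot be separated.

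Fcgr1, which binds monomeric IgG with high affinity, stood at 640, 582, 309 and 484 CPM at D1 and at 180, 187, 96.0 and 110 CPM at D10. The days do not overlap. The log2 change was -1.77 (SE 0.41, edgeR adjusted p = 0.0126), and without D1_infiltrating 2 it was -1.58 (adjusted p = 0.057). At D2 the 3 libraries held 479, 358 and 629 CPM, and at D21 the pair held 149 and 191 CPM.

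Fcgr3 stood at 359, 708, 394 and 842 CPM at D1 and at 327, 299, 208 and 207 CPM at D10. Each D10 library lay below each D1 library, but the log2 change of -1.14 (SE 0.45) missed the threshold (edgeR adjusted p = 0.104, 95% interval -2.11 to -0.17). Fcgr3 spread widely within D1, with D1_infiltrating 1 and D1_mixed 1 low and the other libraries high.

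Fcgr4, an activating receptor for immune complexes of some IgG subclasses, stood at 80.8, 81.7, 106 and 158 CPM at D1 and at 35.9, 57.9, 26.0 and 23.3 CPM at D10, with no overlap. It fell by 1.48 on the log2 scale (SE 0.33, edgeR adjusted p = 0.0107). Leaving out any 1 library did not end this call. The level was 35.3 and 26.9 CPM at D21.

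The inhibitory Fcgr2b fell as far as Fcgr1. It stood at 244, 709, 496 and 589 CPM at D1 and at 219, 144, 112 and 136 CPM at D10, again without overlap. The log2 change was -1.77 (SE 0.46, edgeR adjusted p = 0.0226). The call was lost without D1_infiltrating 2 (-1.44, adjusted p = 0.0955), without D10_mixed 1 (-1.68, adjusted p = 0.0696) and without D10_mixed 2 (-1.79, adjusted p = 0.0593).

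Fcer1g held at 4431, 4186, 3966 and 3087 CPM at D1 and at 3745, 3814, 2293 and 2085 CPM at D10, with overlap between the days. Its log2 change was -0.34 (95% interval -1.10 to 0.41, edgeR adjusted p = 0.548). Scaling by total UMIs gave the same 3 calls, at -1.82 for Fcgr1, -1.80 for Fcgr2b and -1.54 for Fcgr4.

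**Figure D2:**
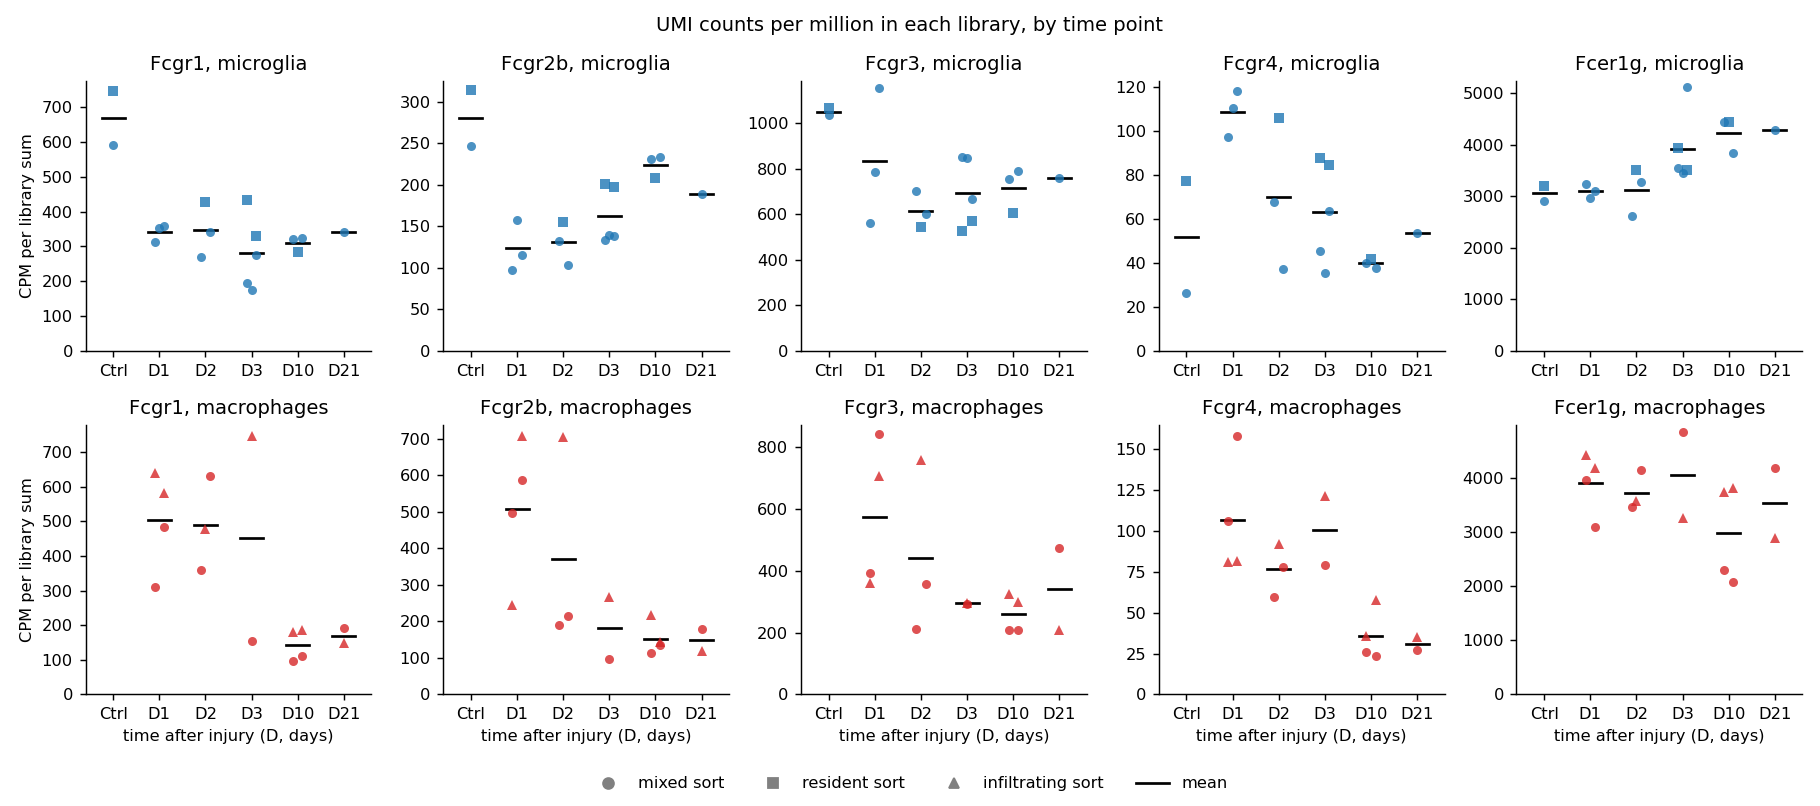
Level of each gene in CPM against time, 1 point per library and a bar at the mean, for microglia and macrophages. In macrophages the D10 values of Fcgr1 (96.0 to 187 CPM) lie below all D1 values (309 to 640 CPM).

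No member was called in macrophages at D2 or D3 against D1, where the test called 0% of all genes at D2 and 0% at D3. At an unadjusted p under 0.05 these counts were 0 members and 123 genes at D2, and 1 member (Fcgr2b) and 612 genes at D3, and DESeq2 called 0 members at both. The D3 comparison rests on a pair of unlike libraries: Fcgr1 stood at 747 CPM in D3_infiltrating 1 and 155 in D3_mixed 3. The macrophages of D3_resident 1 and D3_resident 2, which did not enter this fit, held 543 and 548 CPM. At D21 against D1 the edgeR test called 0 members and 3.56% of all genes, 3 members had an unadjusted p under 0.05, and DESeq2 called 2. The values were -1.43 for Fcgr1, -1.74 for Fcgr2b and -1.54 for Fcgr4 (edgeR adjusted p = 0.13, 0.123 and 0.0705).

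The macrophage populations of the days differ in make-up. Of the D1 macrophages in the fitted libraries 54.0% lay in deposited cluster 11, 21.0% in cluster 12, 19.7% in cluster 8 and 1.67% in cluster 9. At D10 61.1% lay in cluster 9, 22.6% in cluster 3 and 0.763% in cluster 11. These shares are pooled over cells, and 549 of the 786 macrophages in the fitted D10 libraries come from D10_infiltrating 1. D10_mixed 1 and D10_mixed 2 hold 53 and 68 cells, with the monocyte list at 5648 and 5407 CPM against 710 in D10_infiltrating 1, and had the lowest Fcgr1. Fcgr1 was highest in cluster 11 (812 CPM over all its cells) and cluster 12 (684 CPM) and stood at 166 CPM in cluster 9. Fcgr2b stood at 386 CPM in cluster 11 and 135 CPM in cluster 9. Since the clusters were drawn from the same genes, these levels describe and test nothing.

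Within cluster 9, whose cells were present at all injured days, Fcgr1 stood at 233, 268, 155, 163 and 314 CPM from the first to the last injured day. Fcgr2b stood at 192, 381, 104, 221 and 295 CPM in the same order. Neither fell steadily there. Fcgr4 stood at 55.3, 145, 83.4, 24.9 and 23.4 CPM, the lowest values at D10 (exact Poisson interval 20.6 to 29.8) and D21 (7.60 to 54.6), and these intervals cover counting error only.

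Markers of other cell types also moved between the macrophage sums of D1 and D10. The microglial list (9 genes) summed to 291 to 1396 CPM at D1 and 998 to 3345 at D10, the monocyte list to 2636 to 6378 and 710 to 5648, and the border macrophage list to 283 to 6009 and 25.3 to 56.2. The list of B and plasma cells summed to 3.37 to 25.8 CPM at D1 and 59.97 to 244 CPM at D10, with 2 of its 7 genes at 0 in macrophages. The natural killer (NK) cell list summed to at most 0.562 CPM at D1 and to 1.73, 0, 22.8 and 49.9 CPM in the 4 D10 libraries, highest in both mixed ones. T cell genes summed to at most 3.31 CPM and mast cell genes to at most 7.76 CPM at either day. Their part in the changes of the receptors was not tested.

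In microglia the receptors' levels after injury depend on the scale when set against control. On total UMIs the median gene lay below control by 0.73 on the log2 scale at D1, by 0.40 and 0.62 at D2 and D3, and by 0.60 and 0.94 at D10 and D21, whereas TMM scaling placed it at -0.08 to -0.01. CPM values against control therefore hold this shift, and both scales are given. Control had 2 libraries, Ctrl_mixed 1 and Ctrl_resident 1, from different sorts, and D21 had 1, whose spread the fit takes from the other times.

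Between D1 and D10 the microglial levels of Fcgr4 and Fcgr2b moved in opposite directions, among 33.7% of all genes called. The D1 libraries were all male and mixed, and they shared a pool code that no control, D2, D3 or D10 library carried. The pool and the day therefore cannot be separated in D10 against D1, nor in D1 against control. Fcgr4 stood at 97.1, 110 and 118 CPM in the 3 D1 libraries and at 41.7, 39.8 and 37.6 CPM in the 3 D10 libraries, with no overlap. The log2 change was -1.53 (SE 0.40, edgeR adjusted p = 0.00773) and -1.39 on total UMIs. Leaving out any 1 library kept this call.

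Fcgr2b stood at 97.6, 158 and 116 CPM at D1 and at 208, 231 and 233 CPM at D10, also without overlap. It rose by 0.71 (SE 0.26, edgeR adjusted p = 0.045) and by 0.86 on total UMIs. The call is close to the threshold and was lost in 10 of the 17 fits that left out 1 library, with values of 0.51 to 0.90 and adjusted p up to 0.205. The library left out in these was Ctrl_mixed 1, Ctrl_resident 1, D1_mixed 1, D1_mixed 3, D2_resident 1, D2_mixed 1, D3_mixed 1 or any 1 of the D10 libraries. DESeq2 called 3 members between these days, Fcer1g (0.41) as well as Fcgr4 and Fcgr2b.

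As a share of the receptor UMIs, which no scaling touches, Fcgr4 took 1.38% and 3.50% in the control libraries, 9.08%, 7.85% and 6.75% at D1 and 3.65%, 2.96% and 2.72% at D10. The D1 shares lie above all control and D10 shares. Fcgr2b took 13% and 14.3% at control, 9.12%, 11.2% and 6.65% at D1 and 18.3%, 17.2% and 16.8% at D10, each day apart from the others. Fcgr1 took 31.1% and 33.9% at control, above the D10 shares of 24.8%, 23.8% and 23.4%, while its D1 shares of 29.3%, 25% and 20.5% overlapped with D10.

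Against control at D1 Fcgr4 rose from 26.3 and 77.1 CPM to 97.1, 110 and 118 CPM. Each D1 library lay above both controls, which themselves differ widely. The log2 change was 1.78 (SE 0.46, edgeR adjusted p = 0.00435) under TMM scaling and 1.05 (adjusted p = 0.0526) on total UMIs, where the median gene stood at -0.73. Without Ctrl_mixed 1 the value was 1.24 (adjusted p = 0.0719). Without Ctrl_resident 1 it was 2.92.

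The chain Fcer1g stood at 2917 and 3192 CPM at control, at 3230, 2967 and 3102 at D1 and at 4440, 4433 and 3836 at D10. On CPM the D1 values overlap with control and the D10 values lie above it. Relative to other genes it rose at D1 (0.71, SE 0.24, edgeR adjusted p = 0.0226), D3 (0.92, SE 0.22, adjusted p = 0.00413), D10 (1.05, SE 0.23, adjusted p = 0.00671) and D21 (1.39, SE 0.30, adjusted p = 0.00698). On total UMIs the values were -0.021, 0.33, 0.46 and 0.53, of which none passed. Without Ctrl_mixed 1 the calls were lost, at 0.70, 0.91, 1.04 and 1.38 with adjusted p = 0.0955, 0.0511, 0.114 and 0.122. Without Ctrl_resident 1 those of D1, D3 and D10 were lost as well, at 0.76, 0.94 and 1.06, and that of D10 was lost without D10_resident 1 (0.95, adjusted p = 0.054).

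Together 2 members were called at D1 against control (46.6% of all genes called, 23.9% higher and 22.7% lower), 1 at D3 (37.6%), 1 at D10 (10.3%) and 1 at D21 (6.98%). At D2 the count was 0 against 29.7% of all genes, with 2 members at an unadjusted p under 0.05 and 1 called by DESeq2.

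Fcgr1 in microglia passed the test against control on total UMIs at D1, D2, D3 and D10 but not under TMM scaling. It stood at 591 and 746 CPM at control, 314, 352 and 359 at D1, 427, 270 and 341 at D2, 176 to 433 (median 275) over the 5 libraries at D3, 283, 320 and 324 at D10 and 342 at D21. Every injured library lay below both controls. On total UMIs the log2 change was -0.95 at D1 (edgeR adjusted p = 0.0202), -0.94 at D2 (adjusted p = 0.0296), -1.24 at D3 (adjusted p = 0.00203) and -1.11 at D10 (adjusted p = 0.0204). Under TMM scaling it was -0.22, -0.59, -0.65 and -0.52, with adjusted p = 0.611, 0.175, 0.0839 and 0.344, and no change passed with all libraries. The D3 value passed without D3_resident 1 (-0.95, adjusted p = 0.0127) or D3_resident 2 (-0.77, adjusted p = 0.0485).

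Fcgr2b stood at 247 and 314 CPM at control and at 97.6 to 158 CPM at D1, 104 to 156 at D2, then 134 to 201 at D3, while D10 had 208 to 233 and D21 189, below both controls throughout. On total UMIs it was lower at D1 (-1.18, edgeR adjusted p = 0.00185), D2 (-1.05, adjusted p = 0.00807) and D3 (-0.79, adjusted p = 0.0137). Under TMM scaling these values were -0.45, -0.67 and -0.20, and none passed. Fcgr3 stood at 1035 and 1065 CPM at control, 561, 784 and 1153 at D1, 545, 702 and 600 at D2, and 608, 754 and 790 at D10, and it was called once, at D2 on total UMIs (-0.78, adjusted p = 0.0404).

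On total UMIs 52.4% of all genes were called at D1 against control, 35.9% and 47.5% at D2 and D3, and 24.5% and 20% at D10 and D21. No member was called in the same direction under both scalings in any comparison with control. Controls shared a pool code with other days in 2 pools: in the pool of Ctrl_resident 1, Fcgr1 stood at 746 CPM at control, 427 in D2_resident 1 and 283 in D10_resident 1, and Fcer1g at 3192, 3509 and 4440 CPM. In the pool of Ctrl_mixed 1, Fcgr1 went from 591 CPM to 320 and 324 in D10_mixed 1 and D10_mixed 2.

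**Figure D3:**
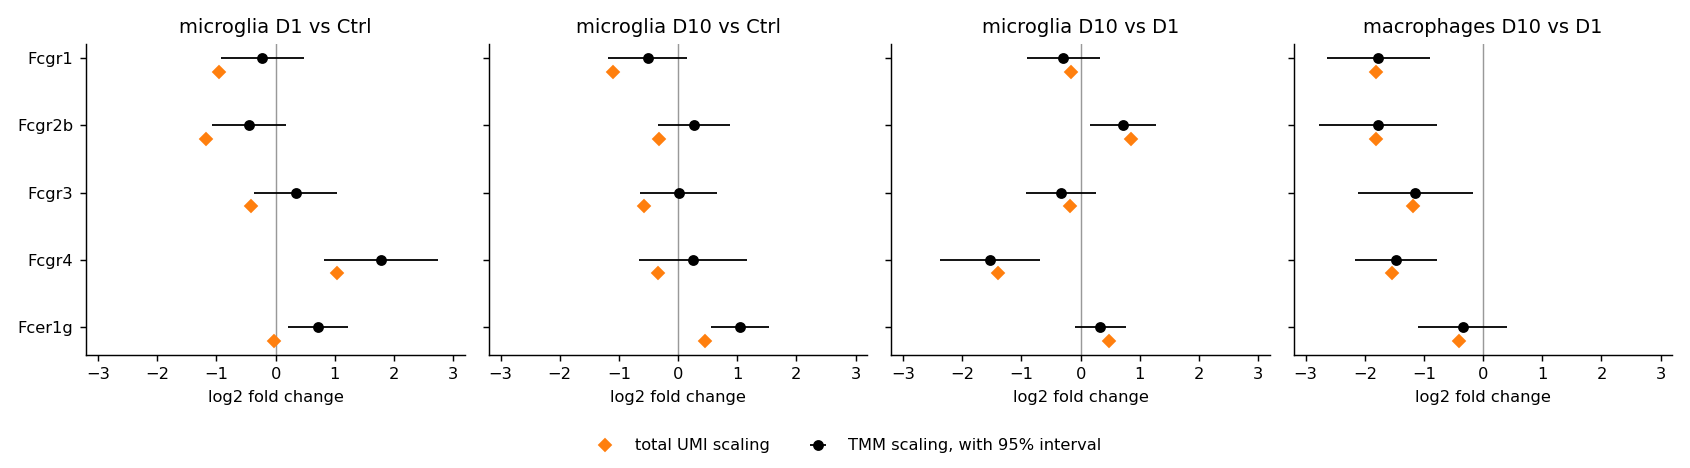
Log2 change with its 95% interval (edgeR, TMM scaling) for each gene, with the value on total UMIs as a diamond. The comparisons are microglia at D1 and D10 against control and at D10 against D1, and macrophages at D10 against D1. Fcgr1, Fcgr2b and Fcgr4 lie below 0 in macrophages from D1 to D10 (-1.77, -1.77 and -1.48).

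Among injured days of microglia D3 was also compared with D1 and D10 with D3. D3 against D1 called 0 members and 18.8% of all genes, with 1 member (Fcgr4, -0.86) at an unadjusted p under 0.05 and 0 by DESeq2. In the mixed libraries alone both Fcgr1 (-0.84, edgeR adjusted p = 0.0292) and Fcgr4 (-1.32, adjusted p = 0.0105) fell from D1 to D3. D10 against D3 called 0 members, 0 at an unadjusted p under 0.05 and 0 by DESeq2, with 6.88% of all genes called.

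The resident and mixed libraries at D3 stood apart in Fcgr1: D3_resident 1 and 2 held 433 and 331 CPM and D3_mixed 1, 2 and 3 held 196, 176 and 275 CPM. Fcgr3 showed the reverse order, at 526 and 571 CPM against 851, 847 and 668. The sorts were not compared by a test at this day.

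The marker lists also moved in microglia. The microglial list summed to 26611 to 30015 CPM at control, 4787 to 9100 at D1 and 14366 to 16049 at D10, and the macrophage list to 319 to 369, 1255 to 1827 and 2294 to 3443. All control microglia lay in cluster 1, 69.9% of D1 microglia in cluster 5 and 27.4% in cluster 2, and 48.7% of D10 microglia in cluster 3 and 32.8% in cluster 4. The part of these shifts in the receptors' levels was not tested. Within cluster 5 the level of Fcgr4 was 113 CPM at D1, 101 and 65.8 at D2 and D3, and 16.8 and 20.2 at D10 and D21, and within cluster 3 it was 158, 128, 93.0, 36.4 and 59.0 CPM. Cluster 3 also holds cells annotated as macrophages, 178 at D10 and 112 at D21 in the fitted libraries.

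The change from D1 to D10 differed between macrophages and microglia for 1 receptor, among 11.6% of all genes. Fcgr2b fell in macrophages and rose in microglia, and the difference between both log2 changes was -2.38 (SE 0.57, edgeR adjusted p = 0.0118). It was lost without D10_mixed 1 (-2.10, adjusted p = 0.0671) or D10_mixed 2 (-2.17, adjusted p = 0.084). For Fcgr1 the difference was -1.48 (SE 0.55, adjusted p = 0.0748). Fcgr4 fell in both types, with a difference of 0.10 (95% interval -0.88 to 1.08). Mixed libraries with enough cells of both types, D10_mixed 1 and D10_mixed 2 among them, gave a sum of each type to this fit. The fit did not block the library, so it treated these sums as independent.

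Between the sorts, compared on whole libraries, 0 members were called by edgeR, 0 at an unadjusted p under 0.05 and 0 by DESeq2. With 11.2% of all genes called, a count of 0 among 5 genes says little about the family. Whole libraries mix cell types, so fewer cells of a type and less RNA per cell cannot be told apart. Fcgr3 ran from 170 to 706 CPM (median 303) in the 7 infiltrating libraries and stood at 440 to 1065 (median 498) in the 5 resident ones (log2 change -0.66, 95% interval -1.61 to 0.29). Fcgr1 ran from 135 to 537 CPM against 228 to 746, and Fcgr2b from 127 to 648 against 185 to 314. All ranges overlap.

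Levels also differed between libraries within a cell type. In macrophages Fcgr2b stood at 709 CPM in D1_infiltrating 2 and 704 in D2_infiltrating 1 but at 244 in D1_infiltrating 1. Dendritic-like cells of these libraries held 427, 406 and 150 CPM, and neutrophil-like cells 214, 140 and 54.9 CPM. These libraries were chosen after their values were seen, and others did not share this order: in D2_mixed 2 Fcgr2b stood at 216 CPM in macrophages and 285 in dendritic-like cells. Fcgr3 stood at 297 and 292 CPM in the macrophages of D3_infiltrating 1 and D3_mixed 3 but at 44.0 and 134 CPM in their dendritic-like cells. No test was made of these differences between libraries.

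Across deposited clusters each gene had its own peak. Fcgr3 was highest in control microglia (cluster 1, 1043 CPM) and in cluster 4 (813 CPM) and lowest in the dendritic-like cluster 15 (76.1 CPM). Fcgr4 was highest in the small macrophage cluster 13, at 234 CPM over 234 cells and 220 to 390 CPM in its 4 libraries of at least 20 cells. The neutrophil-like cluster 16 followed at 139 CPM. In cluster 13 Fcgr1 stood at only 126 CPM, so Fcgr4 exceeded it there, as it did in cluster 16 (139 against 46.1 CPM) and in no other cluster. Fcer1g peaked in cluster 16 (5006 CPM) and cluster 3 (4641 CPM) and was lowest in cluster 14 (1133 CPM).

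**Figure D4:**
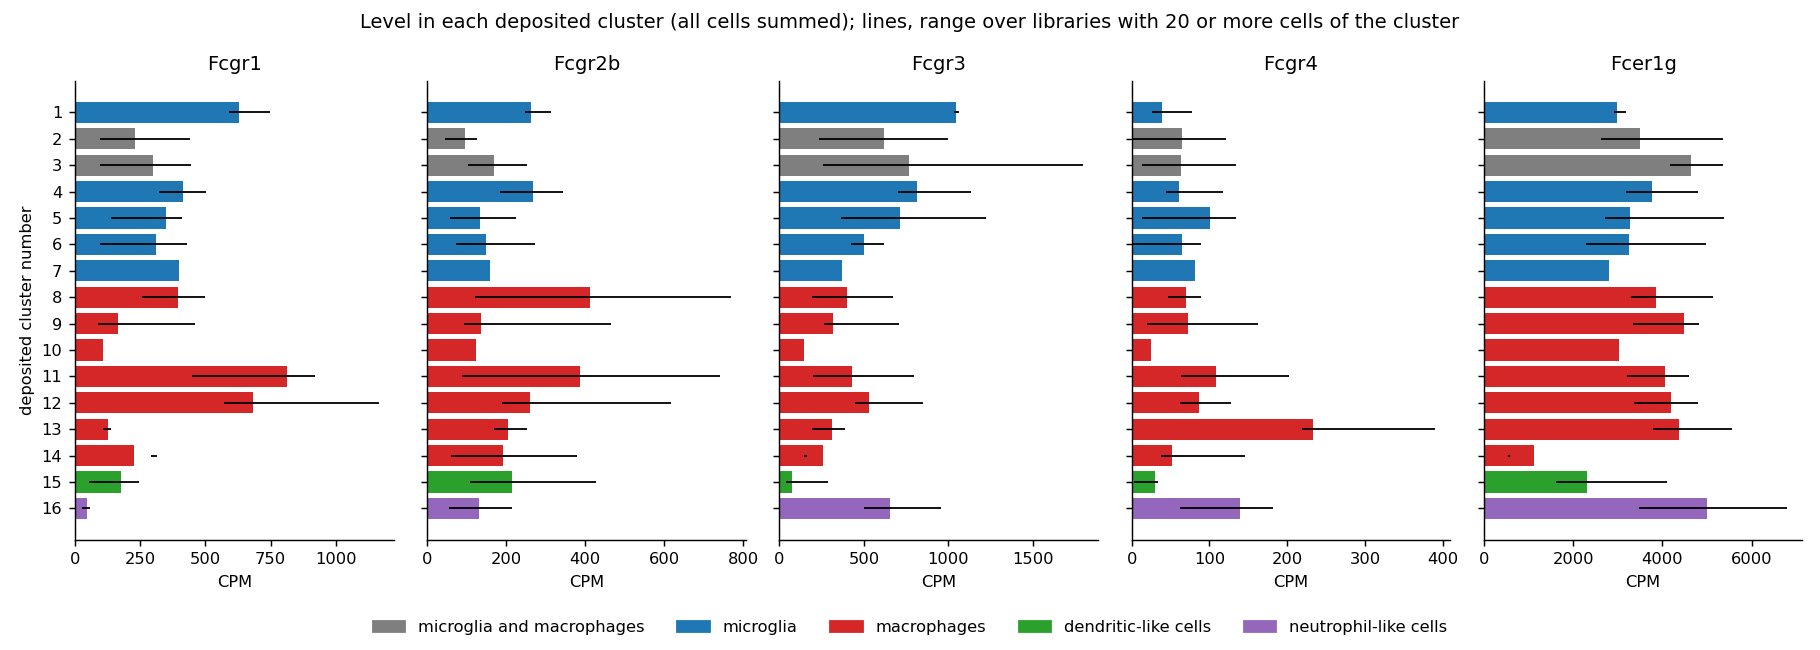
Level of each gene in CPM over all cells of each deposited cluster. Fcgr4 is highest in cluster 13 (234 CPM) and Fcgr1 in cluster 11 (812 CPM), and Fcgr1 is lowest in cluster 16 (46.1 CPM).

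Genes of Fc receptor signalling were read from lists of the pathway, counted against all genes of the same comparison. Of 17 kinases and adaptors, 1 was higher and 7 lower in microglia at D1 against control, where 23.9% of all genes were higher and 22.7% lower, with a list median of -0.47 and a median over all genes of -0.01. On total UMIs 0 were higher and 12 lower, where 40.5% of all genes were lower, and at D10 1 was higher and 10 lower, where 19.9% were. Under TMM scaling the D10 count was 1 higher and 1 lower, where 8.06% of all genes were higher and 2.22% lower. Malt1, a scaffold of NF-kappa B signalling, stood at 50.02 and 63.7 CPM at control and 2.56 to 4.87 at D1 (-3.21). Gab2, a docking adaptor, changed by -2.25 and Pik3cd, a phosphoinositide 3-kinase subunit, by -2.0, and Syk, the kinase that binds phosphorylated ITAMs, was also among the 7. Rac2, a GTPase of the phagocyte oxidase, was higher (1.31) but did not pass on total UMIs (0.57, edgeR adjusted p = 0.0858).

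Of 8 inhibitory genes 2 were lower at D1, where 22.7% of all genes were, and on total UMIs 5 were, where 40.5% of all genes were. Inpp5d, the phosphatase recruited by Fcgr2b, went from 331 and 345 CPM to 41.6 to 59.9 CPM (-2.07), and Dok1, an adaptor that restrains kinase signalling, changed by -0.89. Of 5 oxidase genes 1 was higher, the membrane subunit Cyba (0.82 and 0.09 on total UMIs), where 23.9% of all genes were higher, and on total UMIs 0 were higher and 2 lower. Of 4 other Fc receptors tested 2 were lower, the cytosolic antibody receptor Trim21 (-1.89) and Fcrl1 (-1.30).

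A further list held the separate adaptors Tyrobp, which has an ITAM, and Hcst, which has none, and lectin receptors that pair with the chain. Of 5 tested, 3 were higher at D1, against 23.9% of all genes, and Tyrobp (0.35, edgeR adjusted p = 0.258) and Hcst (0.70, adjusted p = 0.179) did not pass. The lectin receptors Clec4d and Clec4n, which pair with Fcer1g and had 0 counts in both controls, were at least 22.3-fold and at least 7.16-fold higher against a floor of 3 counts over the controls. The third, Clec4e, had 1 control count and 30 counts at D1, with 0 in 1 D1 library, and it did not pass on total UMIs (adjusted p = 0.0503). At D10 4 of the 5 were higher, against 8.06% of all genes. Clec4d and Clec4n were at least 11.7-fold and at least 10.9-fold higher, and Hcst, an adaptor of activating receptors, rose from 25.4 and 32.9 CPM to 80.6 to 126 CPM (2.34). Tyrobp was the remaining one (1.46). Free RNA in the droplets was not removed, and the control libraries held no cells annotated as macrophages. The few Clec4d, Clec4e and Clec4n molecules in microglia are therefore not shown to be their own. D1 macrophages held far more Clec4n, as given below.

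Of 14 interferon response genes 6 were lower at D1 in microglia and 0 higher, with a median of -1.39, where 22.7% of all genes were lower and 23.9% higher. Stat2 (-3.50), the GTPase Gbp5 (-2.92) and Irf1 (-2.25) changed most. At D10 0 of 14 passed in either direction under TMM scaling, where 8.06% of all genes were higher and 2.22% lower. On total UMIs 7 of 14 were lower at D1 and 4 of 14 at D10, the latter being Irf1 (-1.29), Irf8 (-0.70), Irf9 (-1.21) and Gbp5 (-2.13), where 40.5% and 19.9% of all genes were lower. The Src-family kinase Fgr was higher (1.93), and among inhibitory genes Clec12a was higher (2 counts in the controls, 57 at D10) and Dok3 lower (-1.29).

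Of 13 immunoglobulin genes in the list 2 reached testing in microglia, where 1 was lower at D1 (22.7% of all genes lower) and 2 at D10 (2.22%). Ighm, the IgM heavy chain, stood at 186 and 254 CPM at control and at 19.0 to 44.6 at D1 (-2.36) and 35.5 to 50.7 at D10 (-1.84). Ighd, that of IgD, was lower at D10 (-2.27).

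In macrophages from D1 to D10, 3 of the same 5 genes were lower and 0 higher, where 7.04% of all genes were lower. The 3 were the Clec4 lectin receptors, and Tyrobp and Hcst did not pass. Clec4n went from 248 to 1351 CPM at D1 to 9.76 to 92.2 CPM at D10 (-4.39), and Clec4d (-3.95) and Clec4e (-3.29), the receptor Mincle, followed. Of 13 interferon response genes 4 were lower and 1 higher, with a median of -1.52: the chemokine Cxcl10 (-4.80), Ifit1 (-2.81) and Cd274 (-2.61) fell most, and Irf8, a factor of myeloid identity, rose (0.83).

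Kinases and adaptors stayed near the median there (-0.04), with 1 of 17 higher (Prkcd, 0.82, and 0.77 with edgeR adjusted p = 0.126 on total UMIs) and 1 lower (the adaptor Lat2, -1.09). Of 8 inhibitory genes the receptor Clec12a was higher (2.61), and of 5 oxidase genes the catalytic subunit Cybb (1.76). Of 4 other Fc receptors 2 were higher, Fcrl1 (2.50) and Fcgrt, the neonatal Fc receptor that recycles IgG, from 5.56 to 17.03 CPM to 26.6 to 52.9 CPM (1.73). Ighm, the 1 immunoglobulin gene tested, was higher (3.37). Of all genes 7.31% were higher.

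Genes whose levels followed a member most closely over the 17 microglial sums, among 10801 genes, were found by the correlation of log2 CPM, which shares libraries and depth between genes. Fcer1g was most like the lysosomal protein Cd68 (r = 0.95), the protease Ctsz (r = 0.92) and the fatty acid carrier Fabp5 (r = 0.91). Fcgr1 was most like Ints6 (r = 0.91), Fcgr2b like Cpq (r = 0.87), Fcgr3 like Slc7a11 (r = 0.82) and Fcgr4 like App (r = 0.89). Also close were Atn1 (Fcgr1), Ptprm and P2rx4 (Fcgr2b), Smim7 and Zbtb22 (Fcgr3), and Phf5a and Srgn (Fcgr4). No member was among the 3 most like another. Over the 15 macrophage sums of 8577 genes the closest were Slc7a8 for Fcgr1 (r = 0.96), Vmp1 for Fcgr2b (r = 0.93), Atf4 for Fcgr3 (r = 0.93), Rab22a for Fcgr4 (r = 0.94) and Atp6v1f for Fcer1g (r = 0.94).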

How the data were processed

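UMI counts per gene and cell were deposited by the authors with a table of cell types, clusters and pool codes. The percent of mitochondrial UMIs in that table, as deposited, was not used. Per the submitters' processing notes the reads were processed with Cell Ranger 3.1.0 on GRCm38 (mm10); cell filters and doublet treatment are not given in the sources used here, and no cell was removed. Deposited totals equalled the summed counts in all 30958 cells. Counts were summed per library and cell type (20 cells or more). They were tested with edgeR 4.0.16 (R 4.3.3) quasi-likelihood fits with TMM scaling and filterByExpr. All times of a cell type entered 1 fit with sex as a covariate, and comparisons within libraries took the library as a block. The sort comparison took time and sex. The difference between cell types in the change from D1 to D10 took cell type, time, their interaction and sex, without a library block. DESeq2 1.42.0, other scalings, no filter, 50 cells, pool, cluster 2, mixed libraries alone and leaving out each library were alternatives; scaling by total UMIs was added after seeing the data. Fits were tested on simulated data. In each list up to 3 called genes per direction with the largest change were named. Some genes were named outside this rule, among them Syk and the interferon response genes lower at D10 on total UMIs. Likeness took the top genes by Pearson correlation. The members and lists were chosen with earlier results of these data known. Coordinates are from GENCODE M21 and promoters from RefSeq. The library with conflicting sort labels was left out. A few genes that the rules would name are not reported here.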

Additional observations from a re-analysis of the deposited data

Results flagged for a closer look

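The change of Fcgr2b from D1 to D10 differed between macrophages and microglia by -2.38 on the log2 scale (edgeR quasi-likelihood interaction term). It was the 1 member called by this test, which did not block the library. The call was lost without D10_mixed 1 (adjusted p = 0.0671) or D10_mixed 2 (adjusted p = 0.084), and DESeq2 called 2 members.

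The D3 library whose title and sort label disagree entered no comparison, and its levels are given here because it holds many cells of 3 types. Its 2367 macrophages held Fcgr1 at 724 CPM, Fcgr2b at 231, Fcgr3 at 380, Fcgr4 at 98.0 and Fcer1g at 4293. Its 528 dendritic-like cells held Fcgr1 at 205 CPM, Fcgr2b at 193, Fcgr3 at 67.6, Fcgr4 at 29.7 and Fcer1g at 2726. Its 897 neutrophil-like cells held Fcgr1 at 56.8 CPM, Fcgr2b at 88.9, Fcgr3 at 498, Fcgr4 at 157 and Fcer1g at 5204. Among 25 groups of 4 to 10 libraries no library stood apart from the others of its group by Dixon's criterion, which chance meets in about 1 group in 20.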

How the results depend on the processing

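Of 1930 recomputed values of single genes, 1848 kept their side of the threshold, 41 lost a call and 39 gained a call. A change of sign with no call in either fit counts among the 1848, so such changes are not listed. The remaining 2 were called in the fit reported and changed sign. Fcer1g in microglia at D1 against control stood at -0.021 on total UMIs. Fcgr2b in dendritic-like cells against macrophages stood at 0.11 in the mixed libraries alone. The cause was not tested.

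The number of members called moved as follows. In microglia against control at D1 (2 called) it was 1 with median-of-ratios scaling, without a filter and in mixed libraries alone, and 0 to 2 leaving out 1 library. At D2 (0 called) it was 3 on total UMIs, 1 with median-of-ratios scaling, DESeq2, mixed libraries alone and without cluster 2, and 0 to 1 leaving out 1 library. At D3 (1 called) it was 2 with median-of-ratios scaling, total UMIs, no filter and DESeq2, 0 in mixed libraries alone and 0 to 2 leaving out 1 library. At D10 (1 called) it was 2 with the pool as a term, 0 in mixed libraries alone and 0 to 1 leaving out 1 library. At D21 (1 called) it was 0 on total UMIs, 2 in mixed libraries alone and 0 to 1 leaving out 1 library.

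For D3 against D1 in microglia (0 called) it was 2 in mixed libraries alone and 0 to 1 leaving out 1 library, and for D10 against D1 (2 called) it was 3 with DESeq2 and 1 to 2 leaving out 1 library. In macrophages against D1 it was 1 in mixed libraries alone at D3 (0 called), 1 to 3 leaving out 1 library at D10 (3 called), and at D21 (0 called) 1 without a filter, 2 with DESeq2 and 0 to 1 leaving out 1 library. For dendritic-like cells against macrophages (5 called) it was 2 in mixed libraries alone. For the difference between cell types in the change from D1 to D10 (1 called) it was 2 with DESeq2 and in mixed libraries alone and 0 to 2 leaving out 1 library.

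The male mixed libraries share replicate numbers across days, but same-numbered libraries correlated at -0.20 to 0.12 in their deviations, so the numbers were not taken as pairs. With a replicate block the count for D3 against D1 was 2, the same genes and sizes as in the mixed libraries alone (-0.83 for Fcgr1 and -1.33 for Fcgr4). For the comparisons with control no paired analysis was possible because the controls carry no number.

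Counts over all genes moved by over 1.5 times in 68 of 386 recomputed values. They ranged from 1206 to 5664 at D1 against control (5034 in the fit reported), 718 to 3881 at D2 (3210), 255 to 5132 at D3 (4064), 71 to 2644 at D10 (1111), 209 to 2162 at D21 (754), 1004 to 2534 for D3 against D1 (2030), 0 to 1578 for D10 against D3 (743) and 2042 to 4070 for D10 against D1 (3638). In macrophages they ranged from 0 to 45 at D2 (0), 0 to 860 at D3 (0), 376 to 1783 at D10 (1231) and 14 to 781 at D21 (305). Within libraries they ranged from 1432 to 3223 for macrophages against microglia (2744), 1356 to 4805 for dendritic-like cells (4192) and 2829 to 4826 for neutrophil-like cells (4653), from 0 to 1910 between sorts (1295) and from 67 to 1976 for the difference between cell types (1314).

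A pool term could not be fitted for D1 or D21 against control, D3 or D10 against D1 in microglia, or D10 against D1 in macrophages, nor neutrophil-like cells with mixed libraries alone. In the comparisons over time control rests on 2 libraries, D21 microglia on 1 (D21_infiltrating 1 was left out by its sort), and Fcgr4, the least abundant member, on 143 and 147 counts in the controls.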
